A study of Mus musculus with 4 samples.

Results

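mmu-miR-221 and mmu-miR-222, miR-221 and miR-222 in what follows, are a pair of microRNAs (miRNAs) of the mouse X chromosome. Both were found by name in the probe annotation of the liver arrays, and they are 2 of the 611 mouse miRNAs measured. miR-221 was chosen by its ratios of mutant to wild type on these same arrays, where it was higher in Clock mutant liver at both time points, and miR-222 as its genomic partner. The question was whether miR-222 followed miR-221 over genotype and time. The mice were males of 6 to 8 weeks, either wild type (WT) or Clock mutant (ClockΔ19, an allele of the core clock transcription factor CLOCK that is carried in every cell). They were held in 12 h light and 12 h dark with free food for 2 weeks and killed at zeitgeber time (ZT) 2 or 14, in hours after lights on. RNA of whole liver from 3 mice was pooled for each of the 4 arrays (WT at ZT2, mutant at ZT2, WT at ZT14, mutant at ZT14), so each condition had 1 measurement and no replicate, and the number of arrays limits the precision. In whole liver, a change in the number of cells of a type cannot be told apart from a change in the RNA per cell.

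miRNAs are short RNAs that bind messenger RNAs mainly through their seed, bases 2 to 8 from the 5′ end, and lower the protein made from them. miR-221 and miR-222 are made from neighbouring genes and share a seed. They are known for repressing cell cycle inhibitors such as Cdkn1b, for high levels in hepatocellular carcinoma and in activated hepatic stellate cells, and for a role in endothelial cells, where they act on the receptor Kit.

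The mature sequences show what the pair shares. They are given from RefSeq (GRCm38.p6), with the seed in capitals. Another mouse miRNA of that table with the same seed, miR-1928, is not on the arrays.
miR-221-3p: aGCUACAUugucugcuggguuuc
miR-222-3p: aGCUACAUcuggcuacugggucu
miR-1928: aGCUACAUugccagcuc
The arrays call the first pair miR-221 and miR-222, without the arm. The 3 names are those with this seed among 1679 mature mouse miRNA names (0.179%). Both members have 23 bases. Their first 8 bases are identical, and of the other 15 positions, compared base by base without gaps, 3 are identical, while an alignment that allows gaps matched 19 bases in all. The Mir221 hairpin lies on the minus strand at chrX:19146294-19146388 and the Mir222 hairpin on the same strand at chrX:19146893-19146971, with 504 bases between them. The other arm, miR-221-5p (accuggcauacaauguagauuucugu), has no probe on the arrays.

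All 4 arrays were on 1 slide. They detected between 138 and 193 mouse miRNAs, 123 of them on all 4 arrays, and no miRNA spot was saturated. The array of WT at ZT14 had the dimmest miRNA signals. Its 75th percentile over the 123 miRNAs was 339.9 units, against 503 to 537 units on the other 3.

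Only 1 member of the pair was detected. miR-221 was called present on all 4 arrays, as were 123 of the 611 mouse miRNAs (20.1%), and miR-222 on none, as were 416 (68.1%). Both calls were unchanged when a miRNA was instead counted as present with 50% or more of its spots well above background, or with a mean above the negative control mean plus 3 SD. Each member was read by 20 spots on an array, 10 for each of 2 probes.

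miR-221, before any scaling between arrays, had a mean signal at ZT2 of 50.4 units (WT) and 70.6 units (mutant), and at ZT14 of 28.5 units (WT) and 71.2 units (mutant). Probe A_54_P3830 gave spots at ZT2 from 60.0 to 69.4 units in WT (median 63.9) and from 83.0 to 96.1 units in the mutant (median 91.9). At ZT14 its spots ran from 31.1 to 42.0 (median 35.2) in WT and from 74.9 to 94.3 (median 90.8) in the mutant. The lowest mutant spot of that probe was above the highest WT spot at either time point. Probe A_54_P2640 was dimmer on every array, with means at ZT2 of 36.3 units (WT) and 50.5 units (mutant), and at ZT14 of 21.1 units (WT) and 53.6 units (mutant). On the array of WT at ZT14, 1 of its 10 spots was well above background, against all 10 on each of the other arrays, so the lowest value of miR-221 was also the least certain. The mean of A_54_P2640 on that array was just under the negative control mean plus 3 SD, 21.3 units. Both other detection rules were therefore met there mainly through A_54_P3830.

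miR-222 stayed at the level of spots that should bind nothing. Its means over both probes at ZT2 were 2.91 units (WT) and 3.30 units (mutant), and at ZT14 -1.02 units (WT) and 4.67 units (mutant). The negative control spots averaged 5.48, 5.24, 8.32 and 9.72 units on the same arrays, in the order WT at ZT2, mutant at ZT2, WT at ZT14 and mutant at ZT14. Each mean of miR-222 was thus below that of the negative controls of its array. Since miR-222 was below background in both genotypes, no fold change between them is given.

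The probes of miR-222 differed in how close to background they were. Probe A_54_P2643 had means of 0.43, -0.72, -3.08 and 2.05 units in the same order of arrays, and 1 of its 40 spots, on the array of the mutant at ZT14, was marked by the scanner software as positive and significant. Probe A_54_P2644 had means of 5.39, 7.32, 1.04 and 7.30 units, and 6, 8, 1 and 7 of its 10 spots carried that mark. None of the spots of either probe was well above background. The mean of A_54_P2644 exceeded 48.1%, 71.9%, 3.87% and 28.3% of the negative control spots of the 4 arrays, again in that order.

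**Figure D1:**
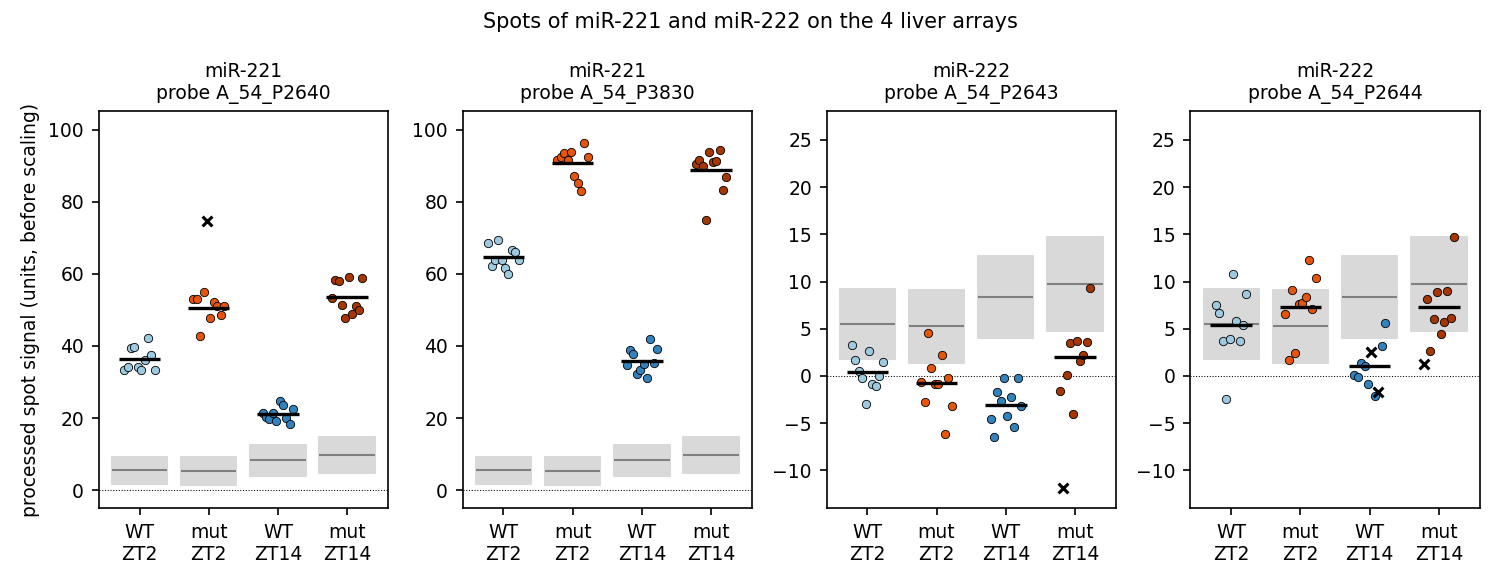
Processed signal of each spot (y axis, units before scaling, on its own scale for each miRNA) for the 2 probes of miR-221 and the 2 probes of miR-222 on the 4 arrays (x axis; mut, Clock mutant). Black bars are means of the spots used, crosses are spots marked as outliers and left out, and grey lines and bands are the mean and 1 SD of the negative control spots of that array. The spots of miR-221 are above the band on every array, and the means of miR-222 lie within or below it.

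To set arrays side by side, each signal was divided by the 75th percentile of its array over the 123 miRNAs. The log2 of this scaled signal of miR-221 was -2.83 on the mutant array of ZT2, -2.91 on the mutant array of ZT14, -3.41 on the WT array of ZT2 and -3.57 on the WT array of ZT14. Both mutant arrays were therefore above both WT arrays. The SD of single spots within a probe (spot SD) was 0.087 to 0.14 on the log2 scale on a single array, which is technical error and holds no difference between mice. A mean over spots varies less than a single spot, so a difference under the spot SD is not thereby within technical error. The neighbours in this order that share a genotype differed by less than the combined spot SD.

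miR-221 was 1.49-fold higher in the mutant at ZT2 (log2 ratio 0.58, spot SD 0.13) and 1.58-fold higher at ZT14 (log2 ratio 0.66, spot SD 0.18). These ratios are the reason miR-221 was chosen, so they are a description and carry no test. Both probes gave the same picture. For ZT2 it was 0.57 (spot SD 0.16) for A_54_P2640 and 0.58 (spot SD 0.094) for A_54_P3830, and for ZT14 0.69 (spot SD 0.18) and 0.65 (spot SD 0.17). After scaling, the spots of either probe did not overlap between genotypes at either time point. The ratio at ZT14 was above that at ZT2 by 0.086 on the log2 scale. The spot SD of that difference was 0.22, a spread of single spots that is wider than the error of the means. With 1 array per condition the difference between the time points could not be tested.

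Against the other miRNAs, 3 of the 160 mouse miRNAs detected on both arrays of ZT2 had a higher ratio than miR-221, and 2 of the 123 detected on both arrays of ZT14. The median log2 ratio over the 160 was -0.065, and over the 123 it was -0.031. At least 1.5-fold higher in the mutant were 3 of the 160 at ZT2 (1.88%), not counting miR-221, which was just under that fold, and 3 of the 123 at ZT14 (2.44%), miR-221 among them. Lower by that fold were 16 at ZT2 (10%) and 13 at ZT14 (10.6%). A 2-fold higher signal was reached by 0 of the 160 (0%) and 0 of the 123 (0%) on this scale, and a 2-fold lower one by 4 (2.5%) and 8 (6.5%). The miRNAs next to miR-221 at ZT2 were miR-100 above it (log2 ratio 0.61, spot SD 0.19) and miR-34a below it (log2 ratio 0.56, spot SD 0.13). At ZT14 they were miR-34a, at a log2 ratio of 0.66 (spot SD 0.13), and miR-200a, at 0.52 (spot SD 0.50). None of these differed from miR-221 by more than the spot SD, which is a spread of single spots and not the error of a mean.

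The size of the ratio depended on how arrays were made comparable. Under 12 ways of processing the signals, the one above included, miR-221 was higher in the mutant in all 12 at ZT2 and in all 12 at ZT14, which describes the values that chose it. The settings that multiply a whole array by 1 number cannot change its distance to the median miRNA, 0.64 at ZT2 and 0.69 at ZT14 on the log2 scale, and over the other settings that distance ran from 0.28 to 0.70 at ZT2 and from 0.18 to 0.93 at ZT14. Its place among the miRNAs did change, to 29 from the top at ZT2 and 13 at ZT14 with the scanner's summed signal and to 9 and 30 with normexp background correction. It was at least 2-fold higher in 1 of the 12 at ZT2 and in 5 at ZT14. These 5 are not separate results, since the authors' table and the unscaled summed signal gave the same log2 ratio at ZT14, 1.34. At ZT14 the unscaled log2 ratio was 1.32. The miRNA signals of the WT array were lower as a set: the median miRNA was then at 0.63, and miR-221 was 0.69 above it. Spike-in control probes were not dimmer on the WT array (geometric mean 6773 units, against 5978 in the mutant), and scaling to them gave 1.499. The normexp correction adds 50 units to every spot and so more than the whole signal of miR-221 in WT at ZT14, and gave a log2 ratio of 0.29 for ZT2 and 0.0058 for ZT14. Subtracting the mean of the negative controls, chosen after seeing the data, moved it the other way, to 0.63 at ZT2 and 0.94 at ZT14.

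**Figure D2:**
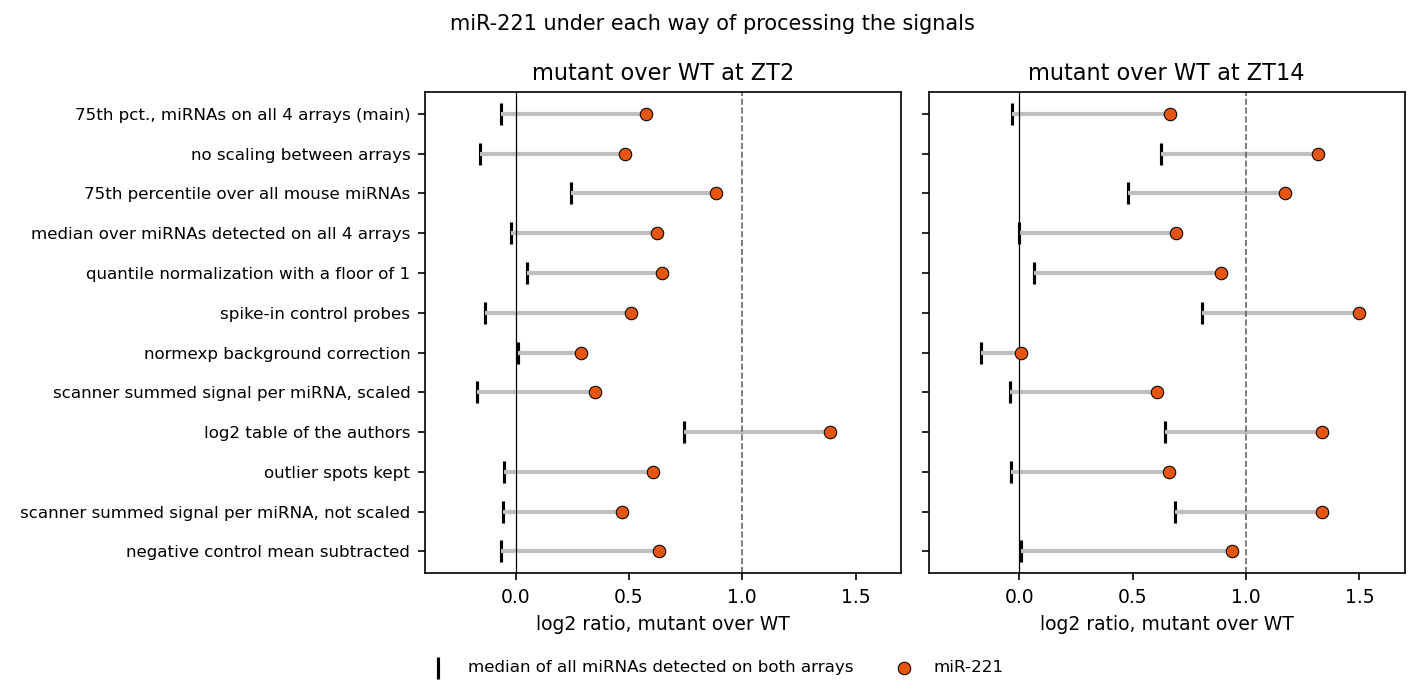
The log2 ratio of mutant to WT (x axis) of miR-221 (orange points) under 12 ways of processing the signals (y axis), at ZT2 and ZT14, with the median over the miRNAs detected on both arrays (black ticks, 160 at ZT2 and 123 at ZT14). The dashed line marks a 2-fold difference. miR-221 lies to the right of the median in each row, and the 2 move together when the scaling changes.

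The authors' log2 table gave a larger ratio at ZT2, and its origin could be read from the files. miR-221 stood there for ZT2 at 1.91 (WT) and 3.30 (mutant), and for ZT14 at 8.65 (WT) and 9.98 (mutant). The scanner's summed signal of miR-221 was 68.5 and 94.8 units at ZT2, a log2 ratio of 0.47, and 40.1 and 101 units at ZT14, a log2 ratio of 1.34. The log2 of the summed signal minus the table value was 4.18 (WT) and 3.27 (mutant) for ZT2, and -3.32 on both arrays of ZT14. The same numbers held, within 0.001, for 147 of 193, 118 of 161, 110 of 138 and 103 of 142 detected mouse miRNAs of the 4 arrays. At ZT2 these numbers differed by 0.92, which raised the log2 ratio of miR-221 from 0.47 to 1.39, and at ZT14 they did not differ, so that the table holds the unscaled ratio. The table cannot be read across time points, since miR-221 was 6.74 higher at ZT14 than at ZT2 in WT and the median miRNA 6.76 higher.

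miR-222 shows the effect of these numbers directly. It was at -7.51 (WT) and -6.59 (mutant) for ZT2 and at 0 on both arrays of ZT14. This is the lowest value of each column, held by 69.2% to 77.4% of the features of the table. The 0.92 between WT and mutant at ZT2 is therefore a difference between arrays that every feature at the lowest value on both arrays has.

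Time of day was not used to choose miR-221, and the additive limma fit of genotype and time point tests it over the 4 arrays. The fit leaves 1 residual degree of freedom for each miRNA, and limma also draws on the spread of the other miRNAs. That residual is the difference between the genotype ratios of the time points, so the ratios that chose miR-221 enter the error of the test. The ZT14 to ZT2 log2 ratio of miR-221 was -0.16 (spot SD 0.17) in WT and -0.077 (spot SD 0.14) in the mutant, and its spots overlapped between time points for both probes in either genotype. The fitted difference was -0.12 (standard error 0.12, adjusted p = 0.667 from limma). In that fit 0 of the 123 miRNAs passed an adjusted p of 0.05 (0% of those tested), and 12 had an unadjusted p under 0.05. The sign of the time difference turned with the scaling, to 0.094 with the median and 0.28 with the 75th percentile taken over all mouse miRNAs. It also turned when 1 array was left out, to 0.17 without the mutant array at ZT2 and to 0.21 without the WT array at ZT14, in a fit of time point alone. With an array gone the genotypes are no longer balanced over time, so the genotype difference of miR-221 enters this estimate (-0.41 without the WT array at ZT2 and -0.45 without the mutant array at ZT14), and the turn is no measure of the effect of time. miR-222 was not detected and was not tested.

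Over the 4 arrays, 5 miRNAs were nearest to miR-221, by Euclidean distance between log2 scaled signals centred on their own mean, among the other 122 miRNAs detected on every array. They were miR-100 at a distance of 0.14, miR-34a at 0.15, miR-195 at 0.31, miR-497 at 0.32 and miR-99a at 0.33, against a median distance of 0.70. miR-34a is known as a target of the p53 pathway, miR-100 and miR-99a share a seed, and miR-195 and miR-497 come from neighbouring genes and share a seed of their own. The mutant was higher than WT at both time points for each of the 5. miR-195 had a log2 ratio of 0.24 (spot SD 0.095) for ZT2 and 0.42 (spot SD 0.14) for ZT14, about the size of miR-497 at 0.25 (spot SD 0.13) and 0.37 (spot SD 0.14), and below miR-221. miR-99a was at 0.36 (spot SD 0.11) and 0.26 (spot SD 0.13). Likeness over 4 arrays is a description that rests on the same genotype difference, and miR-222 could not be placed in it.

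**Figure D3:**
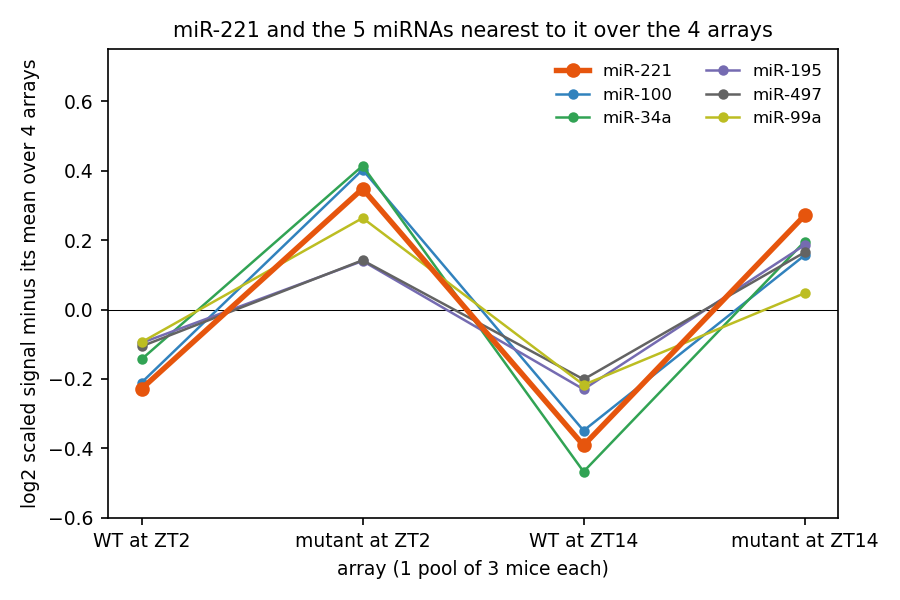
Log2 scaled signal minus its mean over the 4 arrays (y axis) of miR-221 and the 5 miRNAs nearest to it, by array (x axis); lines only join the points of a miRNA. All 6 are above their own mean on both mutant arrays and below it on both WT arrays, and miR-221 spans from -0.39 in WT at ZT14 to 0.35 in the mutant at ZT2.

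Other miRNAs of proliferating liver and of the X chromosome were set beside the pair as a description. Of 12 miRNAs known as oncogenic or raised in proliferating liver, 9 were detected on both arrays at ZT2 and 8 at ZT14, and 0 were at least 1.5-fold higher or lower. Over all detected miRNAs that fold was reached upward by 1.88% and 2.44% and downward by 10% and 10.6%, so a count of 0 among so few is near the background. Their median log2 ratio was 0.092 for ZT2 and 0.11 for ZT14. miR-21, the brightest of them in these arrays, had log2 ratios of -0.28 (spot SD 0.089) for ZT2 and -0.0042 (spot SD 0.071) for ZT14, and miR-20a at 0.17 (spot SD 0.087) and 0.37 (spot SD 0.10). Of 75 other X-linked mouse miRNAs on the arrays, 12 were present on 1 array or more. For ZT2, 10 of them had a ratio, with a median on the log2 scale of -0.23, and for ZT14, 8 had one, with a median of -0.012. At least 1.5-fold lower was 1 of the 10, miR-1198, at -0.68 with a spot SD of 7.29, and 0 of the 8, which is again near the background. miR-223, the brightest of these X-linked miRNAs and also in the leukocyte list below, was at -0.43 (spot SD 0.12) for ZT2 and -0.030 (spot SD 0.12) for ZT14. miR-20b, of the X-linked relative of the miR-17 cluster, was at 0.089 (spot SD 0.12) and 0.34 (spot SD 0.11).

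A detected miRNA with an undetected neighbour was not particular to this pair. Among miRNA genes on the arrays that could be placed by RefSeq, with those sharing a mature miRNA with another gene left out, 102 neighbouring pairs lay on the same strand within 10000 bases. A gene was scored by whichever of its array names was detected on the most arrays, so either arm could count. In 23 of these pairs at least 1 partner was detected on all 4 arrays, and the other partner was detected on all 4 in 10 pairs, on some in 4 and on none in 9 (39.1%), with Mir221 and Mir222 among the 9. Mir191, the neighbour of Mir425, was scored as detected on 1 array by this rule, although miR-191 was detected on none. Mir212 and Mir132, Mir322 and Mir503, and Mir20b and Mir363 were others, and some of the 9 pairs share a gene. Probe sequences were not used here, so how well a probe binds its miRNA was not tested. Whether a detected miRNA, such as miR-20b, owed signal to a related miRNA was not tested either.

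Markers of the cell types in liver were compared in the same way. Hepatocyte miRNAs had summed signals, in multiples of the 75th percentile, of 112 (WT) and 126 (mutant) for ZT2 and of 99.6 and 111 for ZT14. These sums mostly reflect miR-122, by far the brightest of the list. It had log2 ratios of 0.19 (spot SD 0.094) for ZT2 and 0.18 (spot SD 0.078) for ZT14. Of the 5 hepatocyte miRNAs, 2 were lower in the mutant at ZT2 and 3 at ZT14. The hepatocyte list (5 of 5 detected on every array) had a median log2 ratio of mutant to WT of 0.098 at ZT2 and -0.086 at ZT14. Endothelial miRNAs (2 of 2) had medians of 0.074 and -0.14. Stellate cell and fibroblast miRNAs were detected as 5 of 6 on 3 arrays and 4 of 6 in WT at ZT14, with medians of 0.057 at ZT2 and 0.25 at ZT14, and miR-145 was not detected on any array. Their summed signals for ZT2 were 0.936 (WT) and 0.906 (mutant), and for ZT14 0.782 and 0.942. At ZT2, 3 of the 5 in this list were higher in the mutant and 2 lower. Among the lower was miR-143, at a log2 ratio of -0.59 (spot SD 0.12), against 0.19 (spot SD 0.14) at ZT14. Leukocyte miRNAs were lower in the mutant at ZT2, with a summed signal of 1.42 in WT and 0.918 in the mutant and a median log2 ratio of -0.66 over 3 miRNAs, and were at 0.757 and 0.804 at ZT14. The array of WT at ZT2 was thus above each of the other arrays, and it is also the WT side of the miR-221 ratio at ZT2. miR-150 and miR-155 of that list were not detected on any array. Red blood cell miRNAs were higher at ZT2, at a summed 3.34 (WT) and 5.94 (mutant), and lower at ZT14, at 2.96 and 2.56. These sums mostly reflect miR-451, by far the brightest of that list. The dimmer miR-144 had log2 ratios of 0.37 (spot SD 0.14) for ZT2 and -0.17 (spot SD 0.29) for ZT14, and miR-486 was detected on 1 array. Muscle miRNAs (3 of 4) were detected on the array of WT at ZT2 alone. The part of any of these cell types in the level of miR-221 was not tested.

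**Figure D4:**
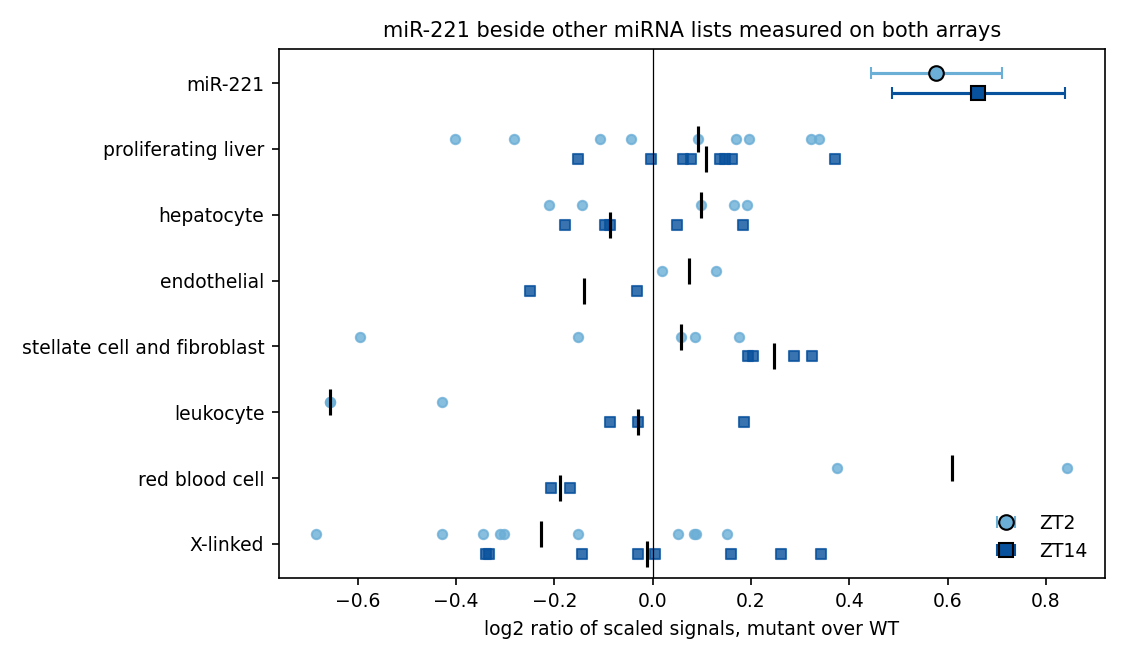
Log2 ratio of scaled signals, mutant over WT (x axis), of miR-221 (bars, 1 spot SD) and of the detected miRNAs of each list (points; black ticks are list medians) at ZT2 (light circles) and ZT14 (dark squares). Muscle miRNAs, detected on 1 array, have no ratio. At ZT14 miR-221 lies to the right of every list member, and at ZT2 to the right of all but 1, miR-451 at 0.84 in the red blood cell list. miR-221 was chosen by these ratios, so its place is a description and no comparison with the lists.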

How the data were processed

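Liver RNA pooled from 3 mice was measured on 4 Agilent 1-colour miRNA arrays, 1 for each genotype and time point, with samples grouped by their titles. The authors deposited Agilent Feature Extraction files with the intensity of each spot after background subtraction and 0 or 1 flags, not normalized between arrays, and a log2 table per feature, for which their methods name Agi4x44PreProcess and state no normalization. Here, the mean of the spots without outlier flags was taken for each probe, then the mean of the probes, and this signal was scaled to the array's 75th percentile, taken over the 123 mouse miRNAs that the scanner software detected on all 4 arrays. The spot SD of a log2 ratio combines the SDs of spots within probes (root mean square over probes) on both arrays. It is a spread of single spots and was not divided down to the error of their mean. Time point was tested with limma 3.58.1 in R 4.3.3, with genotype as covariate and Benjamini-Hochberg adjustment over 123 miRNAs. The code of the fit was first run on simulated arrays with equal spread for every miRNA and no genotype difference. That run checks the code and does not show how the fit behaves on these data. Mutant and WT at 1 time point have no test. Python 3.11.15, numpy 2.4.6, pandas 2.3.3, Biopython 1.88 and matplotlib 3.10.9 served the other steps.

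The members and lists were chosen with earlier results of these data known. Named miRNAs are the members, the 5 nearest in pattern, the neighbours in the order of ratios, and the brightest or outlying members of the lists; the miRNA genes named for undetected neighbours were chosen after their values were seen. Alternatives tried were other scalings, background corrections, summaries per miRNA and detection rules, the authors' table, single probes, time point alone and each array left out. The summed signal without scaling and subtraction of the negative control mean were chosen after seeing the data. The qRT-PCR and target predictions are not analysed here.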

Additional observations from a re-analysis of the deposited data

How the results depend on the processing

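No paired analysis was possible because there is only 1 array per condition, and no replicate numbers. Detection of miR-221 and miR-222 was the same under both other detection rules, and each probe of miR-221 alone, or outlier spots kept, gave every ratio within 1 spot SD. The spot SD serves here as a mark of size, and is wider than the error of a mean of spots. The mutant to WT log2 ratio of miR-221 at ZT2, 0.58, moved past its spot SD to 0.89 when scaled to the 75th percentile of all mouse miRNAs (scaled over all mouse miRNAs below), 0.29 with normexp, 0.35 with the scaled summed signal and 1.39 in the authors' table. At ZT14, 0.66 moved to 1.32 without scaling, 1.17 when scaled over all mouse miRNAs, 0.89 with quantile normalization, 1.499 with spike-in probes, 0.0058 with normexp, 1.34 in the authors' table, 1.34 with the unscaled summed signal and 0.94 with the negative control mean subtracted. The ZT14 to ZT2 ratio in WT, -0.16, was -0.82 without scaling, -0.90 with spike-in probes, -0.77 with the unscaled summed signal and -0.47 with the negative control mean subtracted, and turned to 0.13 when scaled over all mouse miRNAs, 0.059 with the median, 0.11 with quantile normalization, 0.26 with normexp and 6.74 in the authors' table. In the mutant, -0.077 turned to 0.012 without scaling, 0.42 when scaled over all mouse miRNAs, 0.13 with the median, 0.35 with quantile normalization, 0.090 with spike-in probes, 6.69 in the authors' table and 0.096 with the unscaled summed signal.

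The limma time difference of miR-221, -0.12, turned to 0.28 when scaled over all mouse miRNAs, 0.094 with the median, 0.23 with quantile normalization, 0.12 with normexp and 6.71 in the authors' table, whose 2 time points have different zero points. With 1 array left out and time point alone it ran from -0.45 to 0.21, where genotype is unbalanced over time and its difference enters the estimate. Apart from the authors' table, where the adjusted p was 3.6e-05, it lay between 0.284 and 0.945. The count of miRNAs called for time point, 0, was 5 without scaling, 3 with spike-in probes, 3 with normexp, 1 with the unscaled summed signal and 123 in the authors' table, and 0 to 13 with 1 array left out, the 13 without the WT array at ZT14 and 1 without the mutant array at ZT14. The lone array of a time point is then assumed to vary like the others.

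The 3 miRNAs at least 1.5-fold higher in the mutant at ZT2 became 1 without scaling, 14 when scaled over all mouse miRNAs, 5 with the median, 6 with quantile normalization, 1 with normexp, 20 with the scaled and 22 with the unscaled summed signal, 106 in the authors' table, 5 with the negative control mean subtracted and 0 at 2-fold. The 3 at ZT14 became 67 without scaling, 38 when scaled over all mouse miRNAs, 11 with quantile normalization, 95 with spike-in probes, 0 with normexp, 13 with the scaled and 77 with the unscaled summed signal, 70 in the authors' table, 7 with the negative control mean subtracted and 0 at 2-fold. Signal over background limits the value of miR-221 in WT at ZT14, and sets no level for miR-222.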
